A study of Mus musculus with 5 samples.

Results

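Antigen presentation transcripts were examined in sorted mammary epithelial cells of the mouse. The rule takes 7 rows of the deposited table by name out of 12293 rows that carry a gene name, and all 7 were found. Class I is represented by B2m, H2-K1 and the joined row H2-D1H2-L (3 rows), and class II by H2-Ab1, H2-Aa, H2-Eb1 and the joined row Cd74Mir5107 (4 rows), which pairs Cd74 with the microRNA gene Mir5107. RNA came from adult virgin mice whose ovaries had been removed and which then carried hormone pellets for 14 days, and this holds for every group. The hormones, the strain, the age in weeks and the promoter behind the lineage label are not stated in the labels. Every sort took lineage-negative, CD24-positive cells, about 50 cells per library. Luminal-derived basal cells (LdBC, 2 libraries) were CD29hi and GFP-positive, Basal cells (2 libraries) were CD29hi and TdTomato-positive, and Luminal cells (1 library) were CD29low and GFP-positive. Whether replicate libraries stem from different mice is not stated in the labels, so each p-value reflects the library-to-library spread alone, which can be technical.

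Class I molecules are made by nearly all nucleated cells. A polymorphic heavy chain, such as the products of H2-K1 and H2-D1, pairs with beta-2 microglobulin, the product of B2m, and shows peptides from the cytosol to CD8 T cells. Class II molecules are alpha and beta chain pairs, best known from dendritic cells, macrophages and B cells, and show peptides from endosomes to CD4 T cells. Their assembly needs the invariant chain, the product of Cd74. Epithelial cells can also make class II, most often after interferon gamma. Genes of both classes carry a shared promoter module of S, X and Y boxes, which binds the RFX complex, CREB-type factors and NF-Y.

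That promoter module is shown first because it is what the 2 classes have in common in sequence. RefSeq start sites on build GRCm38.p6, the assembly of mm10, were matched by symbol for 5 of the members. These were B2m, H2-K1, H2-D1, H2-Aa and H2-Eb1. H2-Ab1 had no window, and Cd74 was not searched. H2-K1 had 2 windows, and the first listed was used. The 250 bases before each start were searched on both strands for 5 motifs: ATTGG (the Y box), TGACG (the core of the X2 box), the interferon-stimulated response element, the STAT site and enhancer A of class I genes. Capitals below mark every match. The stretch from TGACG to ATTGG is given for the 4 genes that hold both, read 5′ to 3′ on the strand of the gene.
B2m, chr2:122147609-122147638, plus strand: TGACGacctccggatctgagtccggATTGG
H2-K1, chr17:34000359-34000388, minus strand: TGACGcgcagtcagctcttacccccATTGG
H2-D1, chr17:35262993-35263022, plus strand: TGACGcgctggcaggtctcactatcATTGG
H2-Aa, chr17:34287867-34287897, minus strand: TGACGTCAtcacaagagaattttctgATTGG

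In B2m, H2-K1 and H2-D1 the boxes lay 20 bases apart, and in H2-Aa 21. In H2-Aa a second TGACG on the other strand overlaps the first and lies 18 bases from the ATTGG. H2-D1 holds a second ATTGG, on the other strand and 43 bases from its TGACG. The stretches of H2-K1 and H2-D1 shared 23 of 30 bases, and those of H2-K1 and B2m shared 13 of 30, the motifs included. Of 32851 promoter windows of the same length, 33.9% held ATTGG, 17.8% held TGACG and 6.12% held both. The H2-Eb1 window holds ATTGG on both strands and no TGACG. Enhancer A occurred in 0.0304% of windows and was found in H2-K1 and H2-D1. The interferon-stimulated response element occurred in 2.98% of windows and was found in B2m, and the STAT site (7.02% of windows) was found in none of the 5. Only these exact patterns were searched, so a promoter without a match can still hold a variant of the element. A match describes these letters and is not a measured binding site. The 250 bases of a class I light chain promoter, a class I heavy chain promoter and a class II promoter are shown whole as examples.
B2m, chr2:122147437-122147686, plus strand: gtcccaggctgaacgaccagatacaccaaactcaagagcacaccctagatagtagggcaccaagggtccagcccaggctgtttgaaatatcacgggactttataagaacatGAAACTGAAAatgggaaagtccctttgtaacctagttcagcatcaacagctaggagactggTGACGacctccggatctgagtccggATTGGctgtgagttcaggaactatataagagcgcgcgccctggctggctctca
H2-K1, chr17:34000348-34000597, minus strand: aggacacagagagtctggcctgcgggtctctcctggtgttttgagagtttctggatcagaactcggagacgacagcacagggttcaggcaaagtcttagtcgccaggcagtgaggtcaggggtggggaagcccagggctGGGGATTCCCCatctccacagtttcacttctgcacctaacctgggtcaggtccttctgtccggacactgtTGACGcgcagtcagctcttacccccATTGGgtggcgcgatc
H2-Aa, chr17:34287824-34288073, minus strand: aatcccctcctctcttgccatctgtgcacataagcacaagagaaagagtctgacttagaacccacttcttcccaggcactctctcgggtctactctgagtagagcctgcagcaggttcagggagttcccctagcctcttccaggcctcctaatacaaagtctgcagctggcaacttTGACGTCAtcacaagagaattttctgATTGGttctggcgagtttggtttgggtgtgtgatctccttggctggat

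Values of 2 libraries of a group are given in replicate order. Levels are given as FPKM, fragments scaled to transcript length and to the mapped total of the library, which can be compared between genes. Sequencing depth is unknown. Every row kept reached at least 1.0003 FPKM in some library. A gene without a row may thus have lain below about that level in every library, or may be missing for another reason. The libraries held between 8041 (Luminal) and 10979 (Basal replicate 1) rows above 0. In the luminal library 162 rows were listed at 0 that had at least 10 FPKM in each of the other 4 libraries, against 26 in LdBC replicate 1 and 0 to 5 in the remaining 3. Cd74Mir5107 and H2-Ab1 were among the 162 rows of the luminal library. A value of 0 is therefore reported as listed at 0, and no fold is given against it. The 12 basal markers in the table (keratins, contractile genes, Trp63, Snai2) summed to 1866 and 3358 FPKM in the LdBC pair, 15442 and 13296 in the Basal pair and 3.51 in the luminal library. The 11 luminal markers (simple keratins, Epcam, claudins) summed to 40207 and 38155 in the LdBC pair, 1545 and 1103 in the Basal pair and 28087 in the luminal library.

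Class I transcripts were abundant in every library, and class II transcripts were far lower everywhere and listed at 0 in part of the libraries. B2m fell in LdBC and in Basal cells relative to the luminal library, where it was the most abundant transcript. H2-K1 and H2-D1H2-L stayed within a 2.44-fold range over all 5 libraries. Cd74Mir5107 was the highest class II row in Basal cells and was listed at 0 in the luminal library.

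B2m (chromosome 2, 122147686 to 122153083, plus strand) had 4271 and 4857 FPKM in LdBC replicates 1 and 2, 2875 and 1858 in Basal replicates 1 and 2, and 46216 in the luminal library. The luminal value was above all 4 others, and both LdBC values were above both Basal values. It ranked 12 and 10 among all rows in the LdBC pair, 12 and 24 in the Basal pair and 1 in the luminal library, where it made up 5.68% of the summed FPKM. The group means were 4564 ± 415 FPKM in LdBC and 2366 ± 718 in Basal cells (SD, n = 2 each). The difference on the log2(FPKM + 1) scale was -3.34 (SE 0.32) for LdBC minus Luminal and -4.32 (SE 0.32) for Basal minus Luminal, and both passed in limma with Benjamini-Hochberg adjustment over all genes (adjusted p = 0.044 and 0.0349, lower in 2 of 2 libraries each). Over all 10626 genes tested, limma called 4.01% for LdBC minus Luminal (2.06% higher, 1.95% lower) and 8.31% for Basal minus Luminal (3.23% higher, 5.08% lower). At an unadjusted p under 0.05 the shares were 31.2% and 38.1%. Both differences kept their sign in every alternative, but with the 1 luminal library and 2 residual degrees of freedom the calls were fragile. Without LdBC replicate 1 or 2, or Basal replicate 1 or 2, limma called 0 genes in either comparison, with 2127 to 4946 genes at an unadjusted p under 0.05. The adjusted p of B2m without each of these was 0.095, 0.0796, 0.237 and 0.238 for LdBC minus Luminal and 0.0644, 0.0625, 0.191 and 0.191 for Basal minus Luminal. For LdBC minus Luminal the call was also lost with no filter on low values (adjusted p = 0.0571) and in limma without trend (0.052), and quantile normalization gave a difference of -1.79 there and of -2.15 for Basal minus Luminal.

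Between LdBC and Basal cells B2m differed by 0.98 (SE 0.26, 95% interval 0.22 to 1.74), which did not pass (limma with Benjamini-Hochberg adjusted p = 0.18). Of all genes tested, 49.1% had groups that did not overlap, with both LdBC values above both Basal values in 30.5% and below them in 18.6%. Limma called 0.00941% of genes in this comparison, that is 1 gene, the keratin gene Krt18. The median difference of all genes was 0.20 as deposited and -0.09 with median-of-ratios scaling. B2m differed by 0.59 with that scaling and by 0.36 with quantile normalization.

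**Figure D1:**
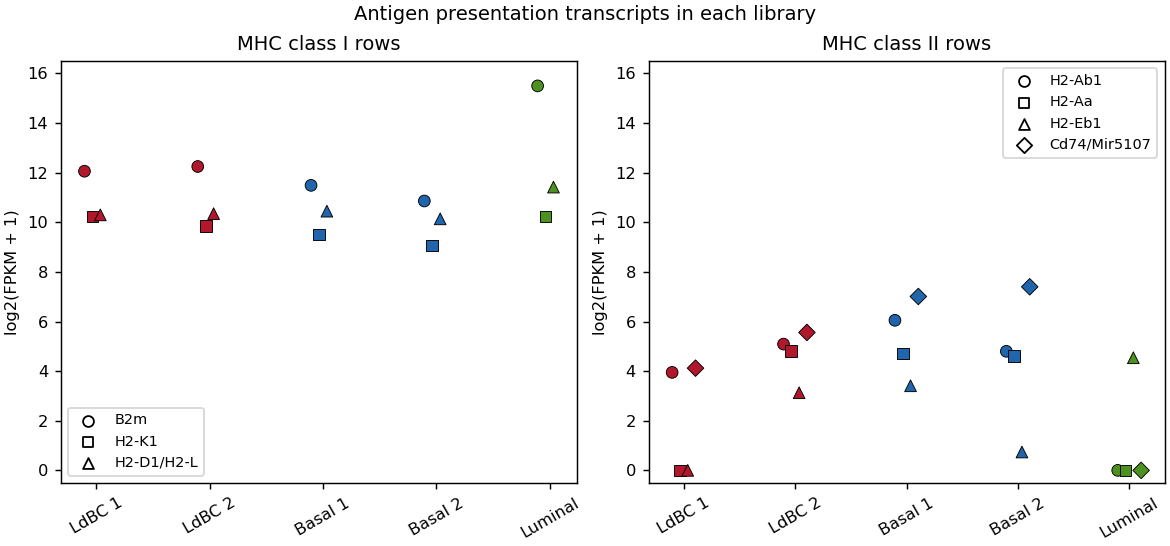
Level of each row as log2(FPKM + 1) in the 5 libraries, 1 symbol per gene and 1 colour per group (red LdBC, blue Basal, green Luminal), with class I in the left panel and class II in the right. The 3 class I rows lie above 9 in every library and B2m reaches 15.5 in the luminal library, while class II rows lie between 0 and 7.4.

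The class I heavy chains did not follow B2m into the luminal library to the same extent. H2-K1 (chromosome 17, 33996017 to 34000347, minus strand) had 1201 and 920.3 FPKM in the LdBC pair, 730.5 and 536 in the Basal pair and 1206 in the luminal library. Its LdBC values lay above both Basal values. LdBC replicate 1 was close to the luminal value, and LdBC replicate 2 lay between it and the Basal values. As shares of the summed FPKM of a library, the LdBC and Basal values overlapped. H2-K1 made up 0.201% and 0.152% in the LdBC pair and 0.160% and 0.132% in the Basal pair. LdBC minus Basal was 0.75 (SE 0.25, 95% interval 0.03 to 1.47, limma with Benjamini-Hochberg adjusted p = 0.236), with 0.36 under median-of-ratios scaling and 0.12 under quantile normalization. LdBC minus Luminal was -0.20 (SE 0.31, adjusted p = 0.664) and turned to 0.21 with median-of-ratios scaling, and it was -0.39 without LdBC replicate 1. Basal minus Luminal was -0.95 (SE 0.31, adjusted p = 0.119), and -0.15 with median-of-ratios scaling. None of these passed.

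H2-D1H2-L joins H2-D1 (chromosome 17, 35262730 to 35267499, plus strand) with H2-L. It had 1256 and 1305 FPKM in the LdBC pair, 1397 and 1124 in the Basal pair and 2748 in the luminal library. The LdBC values lay between the 2 Basal values, and the luminal value was above all others. As a share of the summed FPKM of a library, the row was lower in the LdBC pair (0.210% and 0.216%) than in the Basal pair (0.305% and 0.277%). LdBC minus Basal was 0.03 (SE 0.17, 95% interval -0.45 to 0.51, limma with Benjamini-Hochberg adjusted p = 0.947), and it turned to -0.36 with median-of-ratios scaling, -0.50 with quantile normalization and -0.13 without Basal replicate 2. LdBC minus Luminal was -1.10 (SE 0.20, adjusted p = 0.0734) and Basal minus Luminal -1.13 (SE 0.20, adjusted p = 0.0561). Both missed the threshold. The first passed with quantile normalization (adjusted p = 0.0479) and the second over genes with a mean of at least 5 FPKM (0.0459). With median-of-ratios scaling they shrank to -0.69 (adjusted p = 0.115) and -0.33 (0.274), and with quantile normalization the second was -0.65 (0.0698). All 3 class I rows were lower in LdBC than in the luminal library, a position that 41.7% of genes tested shared, and all 3 were lower in Basal cells than in the luminal library, as were 48.5% of genes.

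The proportions of the class I transcripts differed by library. B2m stood at 1.74 and 2.18 times the summed heavy chain rows in the LdBC pair, 1.35 and 1.12 times in the Basal pair and 11.7 times in the luminal library. H2-D1H2-L stood at 1.05 and 1.42 times H2-K1 in the LdBC pair, 1.91 and 2.10 times in the Basal pair and 2.28 times in the luminal library. The LdBC ratios of the heavy chains were thus below the others. H2-K1, H2-D1 and further class I genes are near-identical over long stretches, and how fragments were divided between them is unknown, so these heavy chain ratios are uncertain to that extent.

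Among class II rows, Cd74Mir5107 had 16.4 and 46.2 FPKM in the LdBC pair, 128 and 168 in the Basal pair and was listed at 0 in the luminal library. The 3 groups did not overlap. Of all genes, 35% had both LdBC values above the luminal one (76.7% above or below it), and 39.8% had both Basal values above it (88.3% above or below it). Basal cells were higher than the luminal library in limma with Benjamini-Hochberg adjustment (adjusted p = 0.0364, higher in 2 of 2 libraries). That call ended without LdBC replicate 1 or 2 (0.0644 and 0.0625) and without Basal replicate 1 or 2 (0.21 and 0.22). LdBC against the luminal library missed the threshold (adjusted p = 0.059) and passed with a pseudocount of 0.1 (0.0318) and over genes with a mean of at least 5 FPKM (0.0415). LdBC minus Basal was -2.37 (SE 0.61, 95% interval -4.12 to -0.62, adjusted p = 0.17), lower in 2 of 2 libraries. That difference stayed between -3.09 and -1.65 when any library was left out and was -2.75 with median-of-ratios scaling.

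The alpha and beta chain rows were less regular. H2-Ab1, a beta chain (chromosome 17, 34257689 to 34269419, plus strand), had 14.5 and 33.2 FPKM in the LdBC pair, 65.5 and 26.9 in the Basal pair and was listed at 0 in the luminal library. The LdBC and Basal ranges overlapped. LdBC minus Basal was -0.91 (SE 0.70, limma with Benjamini-Hochberg adjusted p = 0.551), and -0.33, -1.48, -0.28 and -1.53 without LdBC replicate 1, LdBC replicate 2, Basal replicate 1 and Basal replicate 2. Basal cells against the luminal library gave an adjusted p of 0.0503, which was 0.0302 with a pseudocount of 0.1, 0.0332 over genes with a mean of at least 5 FPKM and 0.0375 with quantile normalization. LdBC against the luminal library gave 0.075, and 0.0388 with a pseudocount of 0.1.

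H2-Aa, the alpha chain that pairs with the H2-Ab1 product (chromosome 17, 34282744 to 34287823, minus strand), was listed at 0 in LdBC replicate 1 and had 26.8 FPKM in LdBC replicate 2. It had 25.2 and 23.3 in Basal cells and was listed at 0 in the luminal library. LdBC replicate 2 therefore stood at the Basal level and LdBC replicate 1 at the luminal one. LdBC minus Basal was -2.26 (SE 1.83, adjusted p = 0.563 in limma with Benjamini-Hochberg adjustment) and 0.14 without LdBC replicate 1. With 1 LdBC value at 0 it moved with the pseudocount, to -3.89 at 0.1 and -1.21 at 5.

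H2-Eb1, a second beta chain (chromosome 17, 34305867 to 34316674, plus strand), was listed at 0 in LdBC replicate 1 and had 7.73 FPKM in LdBC replicate 2, 9.60 and 0.676 in the Basal pair and 22.3 in the luminal library. It was the only class II row above 0 in the luminal library, and that value was its highest. LdBC minus Basal was -0.51 (SE 1.59, adjusted p = 0.896 in limma with Benjamini-Hochberg adjustment), and turned to 1.05 without LdBC replicate 1 and 0.82 without Basal replicate 1. The differences from the luminal library were -2.98 (SE 1.94, adjusted p = 0.371) for LdBC and -2.46 (SE 1.94, adjusted p = 0.403) for Basal cells. These were -1.41 for LdBC without LdBC replicate 1, and -3.79 and -1.13 for Basal cells without Basal replicate 1 and 2. A pseudocount of 5 gave -1.77 for LdBC and -1.58 for Basal cells.

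Set side by side, the summed levels of the 2 classes ranked the groups in opposite orders, which single members such as H2-D1H2-L, H2-Aa and H2-Eb1 did not follow. The 3 class I rows summed to 6728 and 7083 FPKM in the LdBC pair, 5002 and 3518 in the Basal pair and 50169.5 in the luminal library. The 4 class II rows summed to 30.8 and 113.8 in the LdBC pair, 228 and 219 in the Basal pair and 22.3 in the luminal library. The summed FPKM of all rows also differed, at 597580.5 and 605251 in the LdBC pair, 457513 and 405093 in the Basal pair and 813063 in Luminal. As a share of it, class I stood at 1.13% and 1.17% in the LdBC pair, 1.09% and 0.868% in the Basal pair and 6.17% in Luminal. The order of the groups held on this scale, but LdBC and Basal cells lay closer together in class I. Class I exceeded class II by 218 and 62.2 times in the LdBC pair, 21.9 and 16.1 times in the Basal pair and 2255 times in the luminal library. Class II made up 0.456% and 1.58% of the 2 sums in the LdBC pair, 4.37% and 5.85% in the Basal pair and 0.0443% in the luminal library. Both LdBC libraries lay between the Basal and the luminal libraries on this share, with LdBC replicate 2 above LdBC replicate 1. In the luminal library B2m alone gave 46216 FPKM of the class I sum, and H2-Eb1 gave all of the class II sum. The other 3 class II rows were listed at 0 there, as were 2 in LdBC replicate 1. The ratios and shares of these 2 libraries therefore depend on those zeros. These sums describe rows chosen by name and carry no test.

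For LdBC minus Basal, the median difference of the class I rows was 0.75 and that of the class II rows -1.58, beside 0.20 for all genes tested. Median-of-ratios scaling gave a class I median of 0.36 and quantile normalization one of 0.12, and the class II median was -0.10 without LdBC replicate 1. The gap between the medians was 2.33, and 0.65 without LdBC replicate 1, the library in which H2-Aa and H2-Eb1 were listed at 0. In single rows, 0 of 3 class I and 0 of 4 class II rows passed in either direction in limma with Benjamini-Hochberg adjustment, while B2m, H2-K1 and Cd74Mir5107 had an unadjusted p under 0.05 (0.0245, 0.0454 and 0.0209), as did 20% of all genes. In bulk samples of this kind, fewer cells with a transcript and less transcript per cell cannot be told apart.

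**Figure D2:**
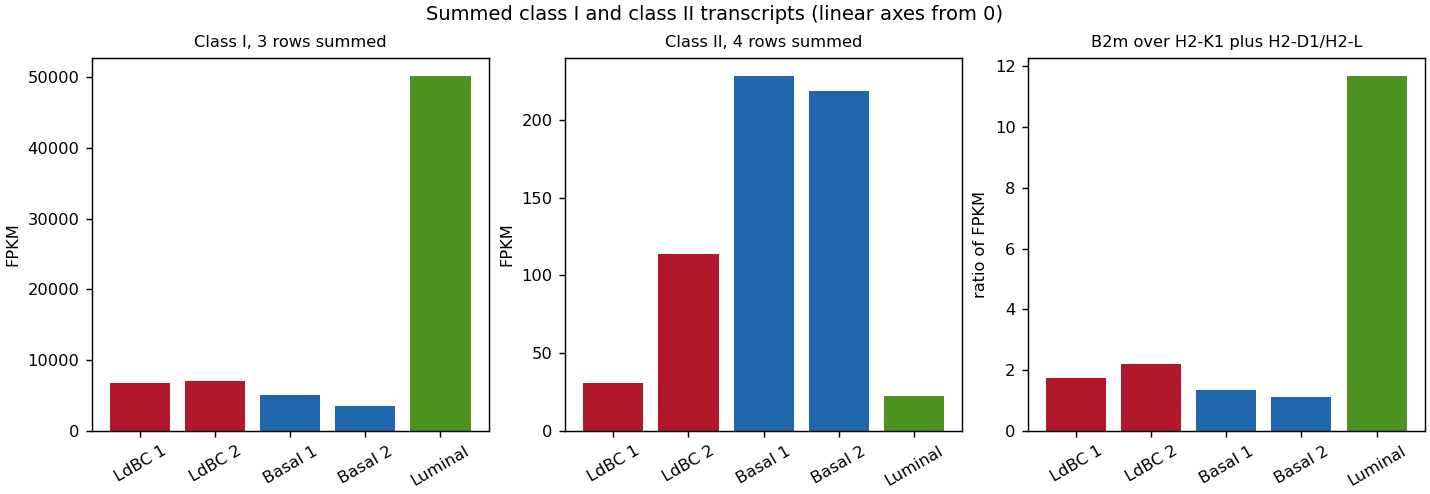
Summed FPKM of the 3 class I rows, summed FPKM of the 4 class II rows, and the ratio of B2m to the summed heavy chain rows, 1 bar per library on linear axes from 0 (red LdBC, blue Basal, green Luminal). The luminal library has the highest class I sum (50169.5) and the lowest class II sum (22.3, from H2-Eb1 alone).

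Genes that prepare and load class I peptides were followed as lists. Over all genes tested, limma with Benjamini-Hochberg adjustment called 0.00941% for LdBC minus Basal, 4.01% for LdBC minus Luminal and 8.31% for Basal minus Luminal. These shares stand beside the counts called in every list below. Of 11 peptide loading genes tested, 0 were called in LdBC against Basal cells or against Luminal, and 1, Tapbp, was lower in Basal cells than in Luminal. Tapbp encodes tapasin, which bridges the heavy chain to the peptide transporter. It had 119 and 140 FPKM in the LdBC pair, 75.5 and 74.0 in the Basal pair and 226 in the luminal library, and Basal minus Luminal was -1.58 (SE 0.23, limma with Benjamini-Hochberg adjusted p = 0.047). The median difference of the list was 0.59 for LdBC minus Basal, beside 0.20 for all genes tested, with 8 positive and 3 negative differences. Unadjusted limma p-values were under 0.05 for 2, 2 and 5 genes in LdBC minus Basal, LdBC minus Luminal and Basal minus Luminal. The shares of all genes tested were 20%, 31.2% and 38.1%. Hspa5, an endoplasmic reticulum chaperone gene, was the most abundant of the list, with 504 and 320.1 FPKM in the LdBC pair, 287 and 291 in the Basal pair and 363 in the luminal library. Pdia3, the oxidoreductase of the loading complex, had 227 and 280 FPKM in the LdBC pair, 121 and 131 in the Basal pair and 305 in the luminal library. The peptide transporter subunits went different ways. Tap1 had 2.23 and 16.8 FPKM in the LdBC pair, 13.9 and 5.43 in the Basal pair and was listed at 0 in the luminal library. Tap2 had 18.4 and 45.9 in the LdBC pair, 11.4 and 8.57 in the Basal pair and 102 in the luminal library. Nlrc5, the class I transactivator, was low, with 1.46 and 4.47 in LdBC and 6.69 and 4.63 in Basal cells, and was listed at 0 in the luminal library.

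The proteasome cuts the peptides. Of 5 immunoproteasome and activator genes, 0 were called in any of the 3 comparisons in limma with Benjamini-Hochberg adjustment. At an unadjusted p under 0.05 there were 0, 3 and 4 for LdBC minus Basal, LdBC minus Luminal and Basal minus Luminal. All genes tested gave 20%, 31.2% and 38.1%. The summed level of the 5 genes was 503 and 490 FPKM in the LdBC pair, 452 and 289.5 in the Basal pair and 1147 in the luminal library. The activator gene Psme2 had 61.7 and 189 FPKM in the LdBC pair, 138 and 103 in the Basal pair and 653 in the luminal library. The immunosubunit gene Psmb8 had 153 and 112 in the LdBC pair, 87.8 and 54.2 in the Basal pair and 192 in the luminal library. Of the 3 constitutive catalytic subunits, 1 was called. The row of Psmb5, joined with Mir686, was lower in Basal cells (156 and 169) than in the luminal library (517), with a difference of -1.67 (SE 0.23, limma with Benjamini-Hochberg adjusted p = 0.0457) and 202 and 250 in LdBC. The luminal library had the highest sum of both lists, while Psme1, an activator gene with 241 and 154 in the LdBC pair, 182 and 104 in the Basal pair and 163 in the luminal library, did not lead there.

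Of 28 further class I and class I-like genes listed, 19 had a row and 17 were tested, and limma with Benjamini-Hochberg adjustment called 0 in each comparison. At an unadjusted p under 0.05 there were 4, 4 and 9 for LdBC minus Basal, LdBC minus Luminal and Basal minus Luminal. All genes tested gave 20%, 31.2% and 38.1%. The summed level of the 19 rows was 464 and 482 FPKM in the LdBC pair, 253 and 193 in the Basal pair and 687 in the luminal library. The most abundant, H2-T23, encodes Qa-1, which is recognised by CD94/NKG2 receptors of natural killer cells. It had 212 and 290 FPKM in the LdBC pair, 141 and 107 in the Basal pair and 287 in the luminal library. H2-Q8 had 81.8 and 29.8 in the LdBC pair, 1.96 and 6.56 in the Basal pair and 53.8 in the luminal library, and the difference of 3.42 between LdBC and Basal cells (SE 0.78, adjusted p = 0.152 in limma with Benjamini-Hochberg adjustment) was the largest of the 17. H2-Q7, a neighbouring gene of the Qa-2 family, had 61.1 and 33.9 in the LdBC pair, 9.33 and 2.37 in the Basal pair and 26.7 in the luminal library. H2-Q8 and H2-Q7 were both above the luminal level in LdBC replicate 1, and near-identical copies make their split uncertain. The joined row H2-T22H2-T9 had 27.4 and 16.8 in the LdBC pair, 7.61 and 1.82 in the Basal pair and 94.97 in the luminal library. Cd1d2, which belongs to the lipid-presenting CD1 family, had 0.699 and 1.04 in the LdBC pair, 1.61 and 2.35 in the Basal pair and 25.2 in the luminal library. Cd1d1, of the same family, went the other way. It had 20.5 and 10.2 in the LdBC pair, 11.9 and 10.9 in the Basal pair and 2.51 in the luminal library.

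The class II pathway beyond the members had 11 loading and regulation genes in the table. Of these, 10 were tested and 0 were called by limma with Benjamini-Hochberg adjustment. At an unadjusted p under 0.05 there were 2, 4 and 6 for LdBC minus Basal, LdBC minus Luminal and Basal minus Luminal. All genes tested gave 20%, 31.2% and 38.1%. The class II transactivator Ciita has no row and was not analysed here. Nfyc, a subunit gene of NF-Y, had 53.6 and 20.3 FPKM in the LdBC pair, 25.8 and 34.3 in the Basal pair and 18.0 in the luminal library. The H2-DM chains, which exchange peptides on class II, did not go one way. H2-DMb1 had 27.7 and 13.8 FPKM in the LdBC pair, 8.50 and 7.42 in the Basal pair and 40.6 in the luminal library, and H2-DMb2 had 11.4 and 14.97 in LdBC, 4.30 and 7.63 in the Basal pair and 30.9 in the luminal library. H2-DMa, their partner chain, had 7.97 FPKM in LdBC replicate 1, was listed at 0 in LdBC replicate 2, had 10.9 and 8.18 in Basal cells and was listed at 0 in the luminal library. H2-Oa, a chain of the DM inhibitor, had 3.73 and 11.1 FPKM in LdBC, was at 0 in each Basal library and had 17.7 in the luminal library. The beta chains of H2-DM were thus highest in the luminal library, where 3 of 4 class II member rows were listed at 0.

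Endosomal enzymes that process antigen and the invariant chain gave more calls than the other antigen presentation lists. Of 6 genes, 1 was lower in LdBC than in Luminal, and 2 were lower and 1 higher in Basal than in Luminal cells. Over all genes tested the shares were 1.95% lower for LdBC minus Luminal, and 5.08% lower and 3.23% higher for Basal minus Luminal. Ctsd, an aspartic protease, had 315 and 353 FPKM in the LdBC pair, 168 and 184 in the Basal pair and 1070.0 in the luminal library. It was lower in LdBC than in Luminal by a log2 difference of -1.68 (SE 0.20, adjusted p = 0.0498) and in Basal cells by -2.60 (SE 0.20, adjusted p = 0.0349), in limma with Benjamini-Hochberg adjustment. Lgmn, an asparaginyl endopeptidase, had 22.9 and 31.1 in the LdBC pair, 21.9 and 13.7 in the Basal pair and 178 in the luminal library, and was lower in Basal cells (-3.28, SE 0.45, adjusted p = 0.0454). Ctsl, a cysteine protease, took the opposite order, with 722 and 972 in the LdBC pair, 1296 and 1132 in the Basal pair and 362 in the luminal library. It was higher in Basal cells than in Luminal (1.74, SE 0.26, adjusted p = 0.0485). Ctss, the invariant chain protease of leukocytes, had 5.57 FPKM in Basal replicate 1 and was listed at 0 in the other 4 libraries. These enzymes also serve general lysosomal turnover. The calls of Tapbp, Psmb5, Ctsd, Lgmn and Ctsl ended without LdBC replicate 1 or 2 and without Basal replicate 1 or 2, where limma called 0 genes in both comparisons with the luminal library.

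Interferon signalling feeds both classes. Of 14 receptor, kinase and transcription factor genes, 0 were called in any comparison by limma with Benjamini-Hochberg adjustment. At an unadjusted p under 0.05 there were 2, 4 and 6 for LdBC minus Basal, LdBC minus Luminal and Basal minus Luminal. All genes tested gave 20%, 31.2% and 38.1%. The list median for LdBC minus Basal was -0.01, or 0.09 without the 1 gene at 0 throughout a group. Socs3, a feedback inhibitor of cytokine signalling, had 20.1 and 40.9 FPKM in the LdBC pair, 41.5 and 60.8 in the Basal pair and 172 in the luminal library. The interferon gamma receptor gene Ifngr1 had 50.2 and 83.5 FPKM in the LdBC pair, 17.4 and 56.0 in the Basal pair and 113 in the luminal library. Of 21 interferon-induced genes tested, a list that shares Psmb8, Psmb9 and Tap1 with those above, 0 were called for LdBC minus Basal and LdBC minus Luminal and 1 was higher in Basal cells than in Luminal. This row, Ifi47 joined with Olfr56, had 10.4 and 14.7 FPKM in the LdBC pair, 51.7 and 22.3 in the Basal pair and was listed at 0 in the luminal library (limma with Benjamini-Hochberg adjusted p = 0.0457), a call that also ended without any of the 4 LdBC and Basal libraries. Ifi47 encodes an immunity-related GTPase. The most abundant of the list, Ifi27l1, had 213 and 229.6 in the LdBC pair, 176 and 165 in the Basal pair and 343 in the luminal library. Bst2, which encodes the membrane protein tetherin, had 45.2 and 23.5 in the LdBC pair, 10.51 and 0.660 in the Basal pair and 422 in the luminal library. The checkpoint ligand gene Cd274 had 42.8 FPKM in the luminal library and was listed at 0 in LdBC replicate 1, with 0.171 in LdBC replicate 2 and 5.49 and 0 in Basal cells.

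**Figure D3:**
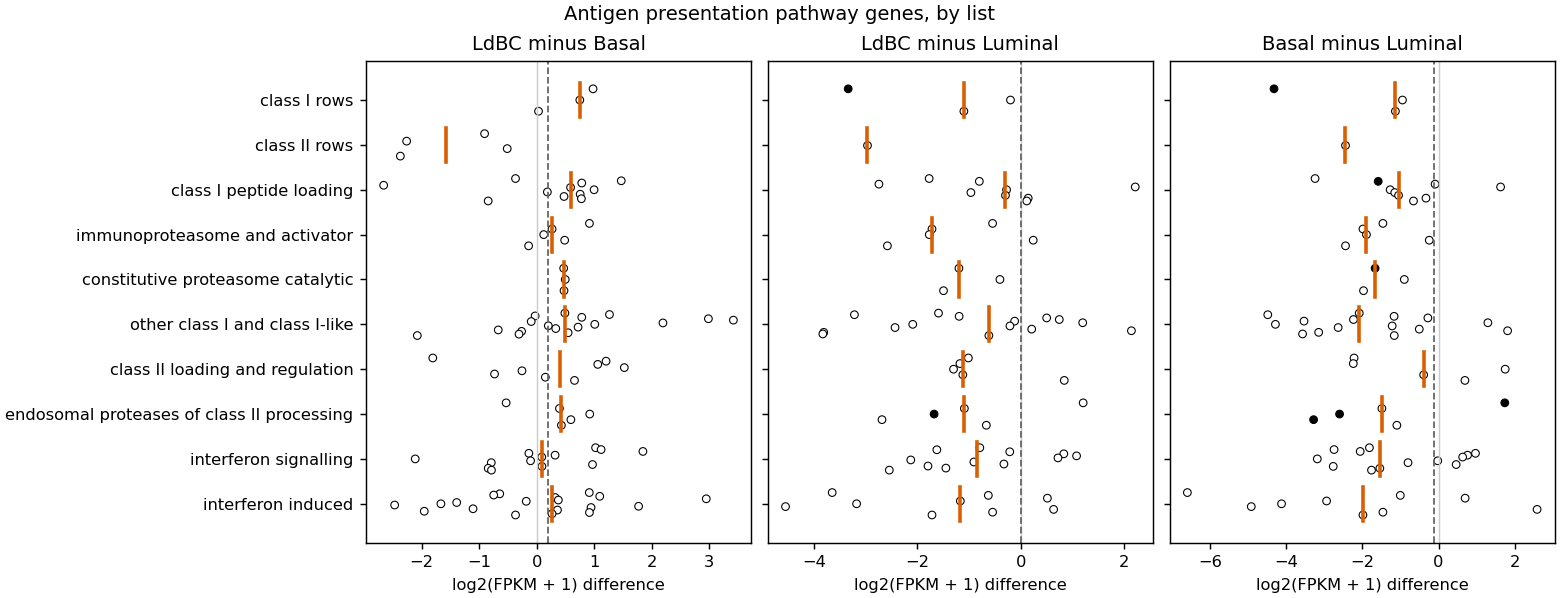
Difference in log2(FPKM + 1) of each tested gene, by list, in the 3 comparisons. Filled points passed an adjusted p of 0.05 in limma, orange bars are medians of the genes drawn and the dashed line is the median of all genes; genes listed at 0 throughout a group are not drawn. No point is filled for LdBC minus Basal, and B2m and Ctsd are filled for LdBC minus Luminal.

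Because leukocytes express both classes strongly, their markers were read beside the members. Of 10 pan-leukocyte markers 4 had a row, and Ptprc, the gene of CD45, is not among them and was not analysed here. Those 4 summed to 16.6 and 30.003 FPKM in the LdBC pair, 29.95 and 30.7 in the Basal pair and were all listed at 0 in the luminal library. Arhgdib had 7.44 and 22.1 FPKM in LdBC and 29.95 and 28.7 in Basal cells, Cd52 gave 9.14 and 6.10 in LdBC with 0 elsewhere, and Laptm5 was above 0 only in Basal replicate 2 (1.10). The luminal library had the lowest sum and LdBC replicate 1 the next lowest, as for the class II rows, while the other 3 libraries lay close together. Of 15 macrophage and monocyte markers 7 had a row, and they summed to 17.5 and 18.5 FPKM in the LdBC pair, 26.3 and 6.002 in the Basal pair and 36.9 in the luminal library, and the lysosomal gene Cd68 gave 17.5 and 8.76 of this in the LdBC pair, 7.18 and 3.86 in the Basal pair and 33.1 in Luminal. C1qc had 1.40 and 2.15 FPKM in Basal cells and was at 0 in LdBC and Luminal. The remaining macrophage and monocyte rows were each above 0 in a single library. These were Lyz2 (13.1), C1qb (2.54) and Aif1 (2.08) in Basal replicate 1, C1qa (9.76) in LdBC replicate 2 and Mpeg1 (3.77) in the luminal library. Of 10 dendritic cell markers, Batf3, Zbtb46 and Fscn1 had a row and summed to 4.44 and 0.650 in the LdBC pair, 15.3 and 12.8 in the Basal pair and 0 in the luminal library. The B cell adaptor gene Blnk was the only B cell marker with a row, with 20.3 and 10.3 in LdBC and 0 elsewhere, and the T cell kinase gene Lck the only T cell marker, at 0.0649 and 6.44 in LdBC and 5.03 and 2.21 in Basal cells. Endothelial cells also make both classes, and their 7 markers in the table summed to 4.13 and 3.53 in the LdBC pair, 176 and 0.511 in the Basal pair and 7.43 in the luminal library. Basal replicate 1, which held these endothelial transcripts, had a class II sum of 228, and Basal replicate 2 had 219. The class II rows behind these sums went different ways. The alpha and beta chain rows summed to 100.3 in Basal replicate 1 and 50.9 in Basal replicate 2, while Cd74Mir5107 had 128 and 168. The fibroblast marker sum was lower in LdBC than in Basal cells, as the class II sum was. Of 10 such markers 8 had a row, and they summed to 29.5 and 67.7 FPKM in the LdBC pair, 292 and 279 in the Basal pair and 305 in Luminal, nearly all of it from Dcn, the gene of the matrix proteoglycan decorin. The sum was highest in the luminal library, where the class II sum was lowest, but there Dcn alone gave it. The other 7 rows were listed at 0 in that library. Rows above 0 numbered 2 and 4 in the LdBC pair, 8 and 7 in the Basal pair and 1 in the luminal library. In 6 of the 8 rows (Col1a2, Col3a1, Dcn, Col5a1, Col6a2 and Fbln1) both LdBC values were below both Basal values. Over all genes tested this share was 18.6%. Only 3 of the 8 rows reached the mean of 1 FPKM needed for testing, and Col1a2, Col3a1, Col5a1 and Col6a2 fell short of it. The part of leukocytes, endothelial cells and fibroblasts in the class II levels was not tested.

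**Figure D4:**
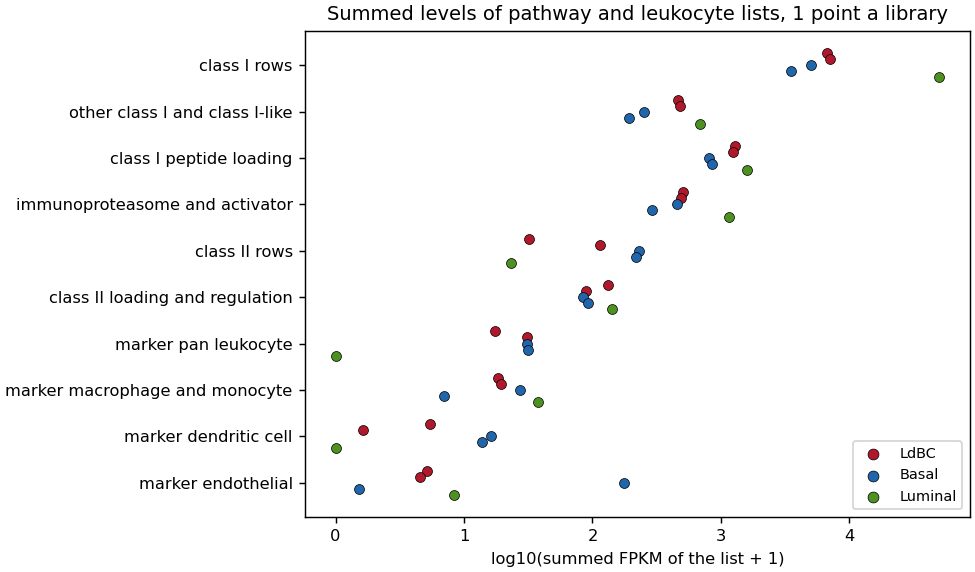
Summed FPKM per library of the class I and class II rows, of their pathway lists and of leukocyte and endothelial marker lists, as log10(sum + 1) with 1 point per library (red LdBC, blue Basal, green Luminal). The luminal point is the rightmost in the 4 class I lists and the leftmost for the class II rows, where it stands at 22.3 FPKM.

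Genes with the most similar course over the 5 libraries were sought for each member, by the root mean square distance between log2(FPKM + 1) profiles centred on their own mean, among 4815 other genes with a mean of at least 10 FPKM. The nearest to B2m was Tmco3 (distance 0.14), with 6.04 and 5.74 FPKM in the LdBC pair, 2.61 and 1.62 in the Basal pair and 58.5 in the luminal library, and then Atp5s and Aarsd1. The heavy chains had closer neighbours, which were genes of general cell functions. H2-K1 was nearest to the ribosomal protein gene Rpl10 (0.06) and also to Bud31 (0.09), and H2-D1H2-L to Actr1b, Psma2 and Thoc2 (0.08 each). Cd74Mir5107 was nearest to Sparc (0.17), a matricellular protein gene with 120 and 351 FPKM in the LdBC pair, 1208 and 1127 in the Basal pair and 6.52 in the luminal library, and then to Htra1 and Wif1 (0.27 each). H2-Ab1 was nearest to Kdelr3 (0.20), H2-Aa to Cdh13 (0.22) and H2-Eb1 to Pigyl (0.35). Members of 1 class were not each other's nearest neighbours. Between H2-K1 and H2-D1H2-L the distance was 0.41, and 767 genes lay nearer to H2-K1, while 75 genes lay nearer to Cd74Mir5107 than H2-Ab1 did (distance 0.94). With 5 libraries in 3 groups such distances describe the course over these libraries only.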

How the data were processed

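The authors deposited 1 table of log2(FPKM + 1) per gene and library; the log scale was inferred because values above 1 return to an FPKM of 6 significant digits in 99.7% to 99.8% of cases. The build was mm10 and the tools were Cuffdiff 2.0.2, Cufflinks 2.0.2 and TopHat2 2.0.4, per the submitters' processing notes; the annotation and strand are not given in the sources used here. Libraries were made by a modified Smart-seq2 protocol, per the labels' protocols. Of 12311 rows, 18 with date-like names were left out. The members, lists and tests were chosen with earlier results of these data known. Limma 3.58.1 with trend (R 4.3.3) was fitted to log2(FPKM + 1), pseudocount 1, with a mean per group over all 5 libraries and the 10626 genes averaging at least 1 FPKM. The residual degrees of freedom were 2 and the prior added 1.65. Tests are two-sided with Benjamini-Hochberg adjustment over all genes and a threshold of 0.05; the luminal library was assumed to vary like the others. All 7 members passed the filter. Fits were tested on simulated data. Genes named are all members and, per list, called genes first and then those of highest mean FPKM. Others (Tap1, Tap2, Nlrc5, H2-Q7, Cd1d1, Cd1d2, H2-DMa, H2-Oa, Ctss and single marker genes of other cell types) were chosen after their values were seen. Gene positions come from GENCODE M21 and start sites from RefSeq, both on GRCm38. Alternatives were the pseudocount, the filter, scaling, trend, a replicate block and leaving out each library. Some genes that the naming rule or the lists hold are not reported here.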

Additional observations from a re-analysis of the deposited data

How the results depend on the processing

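With 2, 2 and 1 libraries, the number of calls depended on most settings, while most differences of the members kept their sign. For LdBC minus Basal limma called 1 gene, against 0 with a pseudocount of 0.1, median-of-ratios scaling or no trend, 2 over genes with a mean of at least 5 FPKM, 4 with quantile normalization, and 0 to 56 when a library was left out. For LdBC minus Luminal it called 426 genes (219 higher, 207 lower), against 1175 with a pseudocount of 0.1 (865 higher, 310 lower), 483 with one of 5 (135 higher, 348 lower), 4 with no filter, 788 over genes with a mean of at least 5 FPKM, 258 with median-of-ratios scaling, 647 without trend and 0 without any of the LdBC or Basal libraries. Quantile normalization gave 184 higher and 111 lower. For Basal minus Luminal it called 883 (343 higher, 540 lower), against 1826, 488, 1621 and 570 (352 higher, 218 lower) with the pseudocount of 0.1, no filter, the filter at 5 FPKM and median-of-ratios scaling, and 0 without any of those libraries. Quantile normalization gave 428 higher and 359 lower, the pseudocount of 0.1 gave 1101 and 725, and that of 5 gave 246 and 876. The cause of these shifts was not tested, except that a left-out LdBC or Basal library leaves 1 residual degree of freedom. The gap between class medians for LdBC minus Basal was 0.65 to 3.47 when a library was left out (lowest without LdBC replicate 1) and 1.75 to 2.77 otherwise. Leaving out a library gave -0.13 to 0.19 for H2-D1H2-L, -2.31 to 0.14 for H2-Aa and -1.84 to 1.05 for H2-Eb1 in LdBC minus Basal, with no value for the last 2 without LdBC replicate 2, where LdBC is at 0. Signs turned for H2-D1H2-L in LdBC minus Basal (-0.36 with median-of-ratios scaling, -0.50 with quantile normalization, -0.13 without Basal replicate 2), for H2-Aa (0.14) and H2-Eb1 (1.05) without LdBC replicate 1, for H2-Eb1 without Basal replicate 1 (0.82), and for H2-K1 in LdBC minus Luminal with median-of-ratios scaling (0.21). Median-of-ratios scaling moved the median of all genes to 0.27 for LdBC minus Luminal and 0.37 for Basal minus Luminal, against 0.01 and -0.13 as deposited.

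Same-numbered LdBC and Basal libraries did not deviate together (correlation over genes 0.0115), so the numbers were not taken as pairs. With a replicate block on these 4 libraries limma called 434 genes, among them B2m (adjusted p = 0.0143) and Cd74Mir5107 (adjusted p = 0.00998), on 1 residual degree of freedom. The class gap was not computed against the luminal library, where 3 of 4 class II rows are listed at 0, and depth, which is unknown, limits what those zeros show.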
